A study of Mus musculus with 10 samples.

Results

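The markers described here are 10 genes that cytometry and single-cell work use to tell adipose progenitors from other cells of the fat depot, either as surface antigens (Pdgfra, Cd34, Ly6a, Thy1, Dpp4, Cd55, Dlk1), as a membrane-bound or secreted product of the early progenitor (Pi16, Clec3b), or as a secreted ligand (Gas6). They were chosen by name, as the genes of the deposited count table whose symbol equals one of these 10. All 10 symbols were found among the 56748 genes of the table, and 10 of the 10 passed the filter on low counts that left 14270 genes to test.

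The study asked what loss of the secretory kinase FAM20C changes in fat cells, and sequenced RNA from 5 control and 5 KO cultures of primary adipocytes. Control cultures had the genotype Fam20c-flox and KO cultures Fam20c-flox/Adipoq-Cre, so that both groups carried the floxed allele. Cells of the inguinal stromal vascular fraction, from male mice aged 6 to 8 weeks on a floxed line backcrossed to C57BL/6J, were made to differentiate over 6 to 8 days with isobutylmethylxanthine, dexamethasone, insulin and rosiglitazone. Adipoq-Cre is driven by the adiponectin promoter, which is active in adipocytes, and the labels name no sorting of cell types before RNA was taken.

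In white fat, fibroblast-like progenitors that carry PDGFRA lie along vessels and in the connective tissue around the lobules, and they give rise to adipocytes. Work on mouse inguinal fat separates an early interstitial pool, marked by DPP4, PI16 and CD55, from preadipocytes that are further committed and from a regulatory pool marked by CD142. DLK1 is shed by preadipocytes and restrains their differentiation, and its level falls as adipocytes form.

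The labels do not say whether the 5 cultures of a group came from separate animals, and the p-values measure the spread between these cultures. Library totals were 18949106 to 26237825 counts in the control group and 19883101 to 23291792 in the KO group. CPM stands for counts per 1e6 of the TMM-scaled library size, and a log2 fold change is KO against control. Fam20c (chr5:138754514-138810077, plus strand, GRCm38) was read as a check of the labels. It stood at 8.86, 10.3, 11.9, 9.09 and 11.2 CPM across control libraries 1 to 5, against 6.65, 7.29, 7.11, 7.70 and 7.74 CPM across KO libraries 1 to 5. The mean of Fam20c was 28.8% lower in KO cultures, so that most of its signal remained. Each KO library was below each control library, and KO against control gave -0.49 on the log2 scale (standard error 0.0929; adjusted p = 0.0137 in edgeR's quasi-likelihood test, adjusted by Benjamini and Hochberg). The label of adipocytes was also checked with the markers of mature adipocytes, all 16 of which were tested, with Fabp4 the most abundant at a mean of 20805 CPM in control against 22552 CPM in KO cultures. Of these 16 genes, 0 passed the adjusted limit of 0.05 in edgeR in either direction, 5 were higher and 0 lower at an unadjusted p under 0.05, and their median log2 fold change was 0.05. Their summed level was 46229, 45920, 45013, 44743 and 46025 CPM across control libraries 1 to 5. Across KO libraries 1 to 5 it was 47175, 48609, 48514, 46945 and 46818 CPM, each above each control library. Fabp4 made up 46.5% of this sum. On the leading principal component, which held 23.5% of the variance, control library 4 (21.7) and KO library 1 (24.2) stood apart from the other libraries of their groups.

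Of the 10 progenitor markers, Pdgfra, Cd34 and Clec3b were lower in KO cultures and 0 were higher at an adjusted p under 0.05 in edgeR's quasi-likelihood test. Over all genes tested, 1.86% passed that limit as lower (265 of 14270) and 0.308% as higher (44 of 14270), and of the genes called, 85.8% were lower. DESeq2 called 359 lower and 125 higher, so that 74.2% of its calls were lower. At an unadjusted p under 0.05, 4 markers were lower (the same 3 and Pi16) and 0 higher, beside 7.46% and 4.43% of all genes. In 3 markers each KO library was below each control library, an order seen in 2.66% of all genes, and in 0 markers each was above, which was seen in 1.31%. The log2 fold change was negative for 9 of the 10, against 50.3% of all genes, and its median over the markers was -0.24, against -0.000847 over all genes. These values over all genes also stand beside each list that follows. For 6 of the 7 other markers the 95% confidence interval crossed 0, and a fall as large as that of Pdgfra lay within the intervals of Dpp4, Pi16, Dlk1, Cd55 and Gas6.

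**Figure D1:**
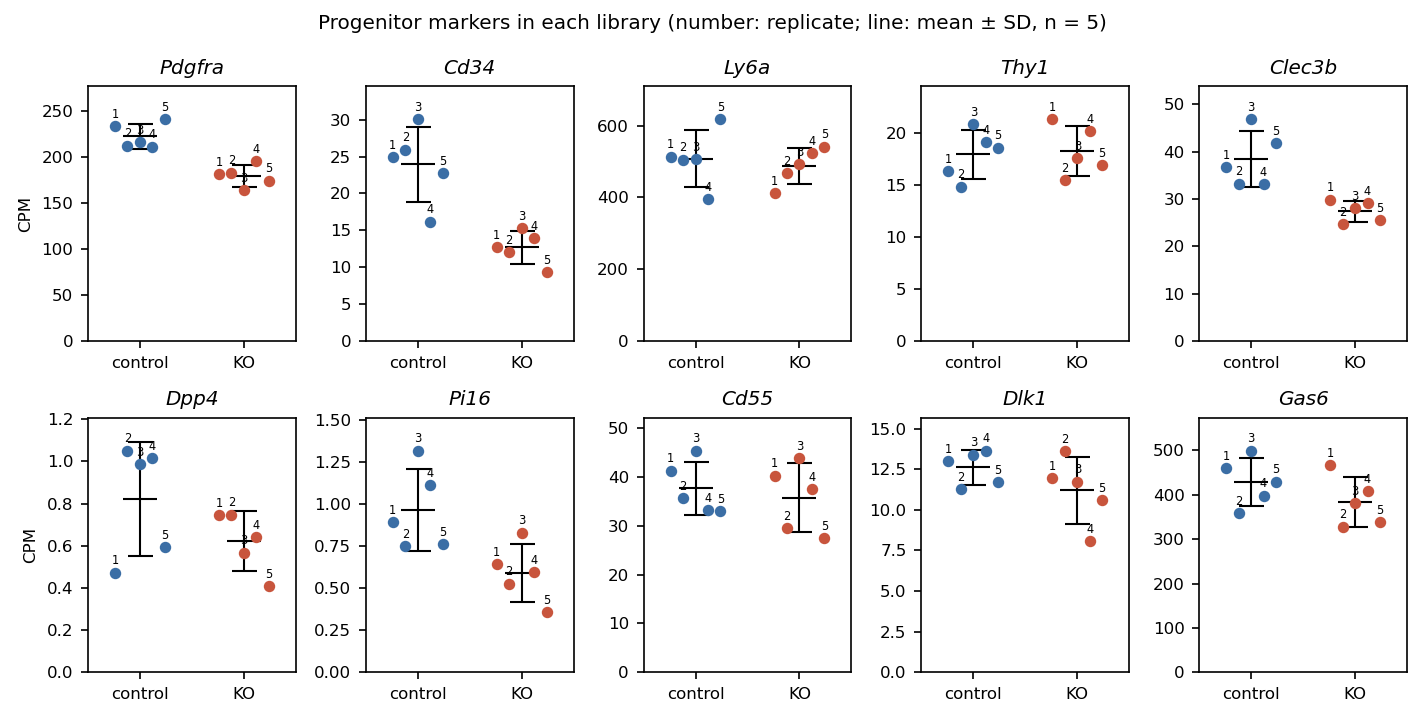
CPM of each progenitor marker in the 5 control (blue) and 5 KO (red) libraries, numbered by replicate, with the mean and SD as black lines; each axis starts at 0. For Pdgfra, Cd34 and Clec3b the KO points lie below the control points, and for the other 7 markers the groups overlap.

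CPM divided by the kilobases of merged exons put the markers on a scale on which genes can be compared. In control cultures Ly6a was the highest at 421 ± 65.6 (SD, n = 5), followed by Gas6 at 169 ± 21.4 and Clec3b at 38.7 ± 5.96. Pdgfra followed at 22.2 ± 1.35, and each of these 4 levels was clear of the next in every control library. Cd55 (7.76 ± 1.12) and Thy1 (5.98 ± 0.786) overlapped, as did Cd34 (3.29 ± 0.701) and Dlk1 (2.23 ± 0.185). Pi16 and Dpp4 were at 0.152 ± 0.0384 and 0.130 ± 0.0428 and overlapped too. Dpp4 and Pi16 also had the fewest counts of the 10 markers. With the longest transcript as length the order was the same, but Cd34 (7.82) was then clear of Dlk1 (2.71) in every control library, while Clec3b (38.7) overlapped Pdgfra (32.6) and Thy1 (10.3) overlapped Cd34.

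Pdgfra encodes the receptor tyrosine kinase that marks nearly all adipose progenitors and is lost from mature adipocytes. It lies on the plus strand at chr5:75152292-75198215. Control libraries 1 to 5 had 233, 212, 216, 211 and 241 CPM, and KO libraries 1 to 5 had 181, 183, 164, 195 and 174 CPM. The groups did not overlap, and library 4 was both the highest KO and the lowest control library. The mean fell from 223 ± 13.6 to 179 ± 11.6 CPM (SD, n = 5), or on the log2 scale a change of -0.31 (standard error 0.0544, 95% confidence interval -0.43 to -0.19, adjusted p = 0.00878 by edgeR's quasi-likelihood test). In a 2-sided exact permutation test p was 0.00794, the smallest value that 5 against 5 libraries allow. Pdgfra overlaps Gm42802 and Gm42803 on the opposite strand and Mir7025 on its own, and these had 7, 4 and 5 counts over the 10 libraries, against 44008 for Pdgfra. In bulk RNA, fewer cells of a type and less RNA per cell cannot be told apart, here and for each marker that follows.

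Of the 7 PDGF ligands and receptors, 3 were lower and 0 higher in KO cultures at the adjusted limit in edgeR, and the median log2 fold change was -0.10. Besides Pdgfra these were the ligand genes Pdgfb and Pdgfd. Pdgfb, a ligand of both receptors that endothelial cells release to recruit pericytes, had 3.51, 3.94, 5.74, 4.88 and 4.69 CPM in the control libraries, against 3.62, 2.06, 1.70, 1.79 and 1.68 CPM in the KO libraries. KO library 1 was above control library 1 and the other KO libraries were below all control libraries, and the log2 fold change was -1.07 (standard error 0.213, edgeR adjusted p = 0.0184); without control library 3 or 5, or without KO library 2, 3, 4 or 5, the adjusted p was 0.0508 to 0.0645, and with the replicate number as a block it was 0.0745. Pdgfd, a ligand of the beta receptor, fell from 8.48 ± 0.864 to 5.94 ± 0.454 CPM (SD, n = 5) without overlap (log2 fold change -0.51, standard error 0.0922, edgeR adjusted p = 0.0102). Of the other ligands, neither Pdgfa nor Pdgfc passed the limit, with log2 fold changes of 0.09 for Pdgfa (edgeR adjusted p = 0.833) and 0.18 for Pdgfc (adjusted p = 0.495). The beta receptor Pdgfrb, carried by progenitors and by mural cells, stood at 91.5 ± 10.4 CPM in the 5 control cultures against 86.6 ± 10.5 CPM with KO (SD, n = 5), with a log2 fold change of -0.08 (edgeR adjusted p = 0.836). Whether Pdgfra changed by more than Pdgfrb was not tested.

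Cd34 encodes a sialomucin found on adipose progenitors and also on endothelial cells of small vessels. It lies on the plus strand at chr1:194938819-194961279. Control libraries 1 to 5 had 24.9, 25.9, 30.1, 16.1 and 22.7 CPM, and KO libraries 1 to 5 had 12.7, 12.1, 15.3, 14.0 and 9.36 CPM. The KO libraries were all below the control libraries, but control library 4, at 16.1 CPM, was far below the other control libraries and close to KO library 3, at 15.3 CPM. The mean was 24.0 ± 5.11 CPM in the 5 control cultures against 12.7 ± 2.24 CPM in KO cultures (SD, n = 5), and was thus 47.0% lower in KO. The log2 fold change of -0.91 was the largest in size of the 10 markers (standard error 0.156, 95% confidence interval -1.25 to -0.58, adjusted p = 0.00722 by edgeR's quasi-likelihood test; 2-sided exact permutation test, p = 0.00794). Its overlapping antisense gene Gm16897 had 29 counts over the 10 libraries, which is 0.716% of the count of Cd34. Of the CD34 sialomucin family of 3 genes, Cd34 alone passed the limit, 2 were lower and 1 higher at an unadjusted p under 0.05, and its relatives Podxl and Podxl2 had log2 fold changes of -0.60 and 0.46 with edgeR adjusted p-values of 0.264 and 0.366.

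Markers of endothelial cells moved in the same direction as Cd34. Of 18 endothelial genes, 15 were lower and 0 higher in KO cultures at the adjusted limit in edgeR, and the median log2 fold change was -1.23. Cdh5, the junction cadherin and the most abundant of them, fell from 53.1 ± 5.11 to 22.1 ± 3.67 CPM (SD, n = 5), or on the log2 scale a change of -1.27 (edgeR adjusted p = 5.3e-05). Robo4, Egfl7 and Emcn, with log2 fold changes of -1.65, -1.24 and -1.29, were the others with the smallest p-values. The summed level of the 18 genes was 204, 215, 243, 251 and 242 CPM across control libraries 1 to 5, against 130.4, 104, 107, 89.9 and 98.5 CPM across KO libraries 1 to 5. The order of the control libraries was not that of Cd34: control library 4 had the lowest Cd34 and the highest endothelial sum, and control library 3 had the highest Cd34. The part of endothelial RNA in the lower Cd34 of the KO cultures was not tested.

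By the difference of centred log2 CPM over the 10 libraries, the genes most like Cd34 among 10648 genes were Lum and Gucy1a1, with root mean square differences of 0.158 and 0.180. Lum encodes lumican, a small proteoglycan of collagenous matrix that fibroblasts secrete. Lum had 45.8, 42.5, 44.0, 30.4 and 41.6 CPM in the control libraries, against 25.1, 20.9, 26.9, 24.9 and 21.4 CPM in the KO libraries. Gucy1a1, a subunit of the soluble guanylate cyclase that nitric oxide activates, had 12.1, 12.3, 11.5, 8.37 and 12.5 CPM in the control and 5.90, 6.37, 6.50, 7.05 and 5.70 CPM in the KO libraries. Both were picked for their likeness to Cd34, so that the low value of control library 4 in all 3 follows from the choice. A shared order and fold change follow from it too and are no separate result. The log2 fold changes were -0.78 for Lum (edgeR adjusted p = 0.00154) and -0.84 for Gucy1a1 (edgeR adjusted p = 0.00114).

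**Figure D2:**
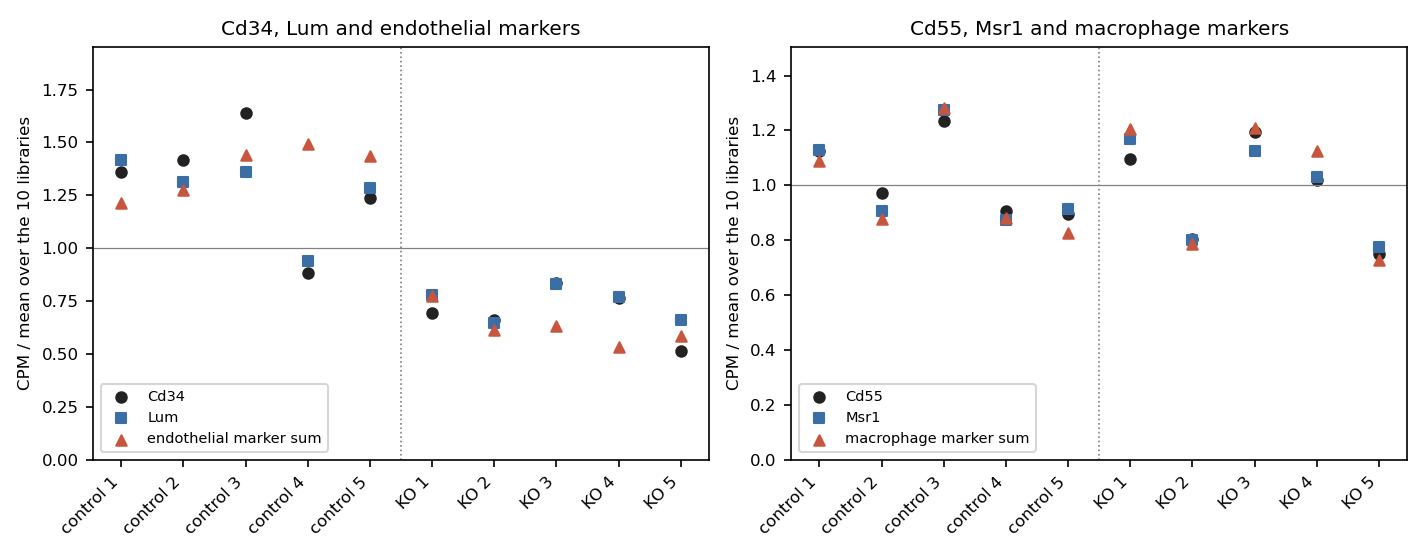
CPM of Cd34, Lum and the sum of 18 endothelial markers (left) and of Cd55, Msr1 and the sum of 11 macrophage markers (right) in each of the 10 libraries, each divided by its mean over the 10 libraries. In control library 4, Cd34 and Lum lie below 1 while the endothelial sum is at its highest; on the right the KO and control libraries overlap.

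Clec3b encodes tetranectin, a secreted C-type lectin that binds plasminogen and is abundant in early fibroblast-like progenitors. It lies on the plus strand at chr9:123150946-123157432. Control libraries 1 to 5 had 36.8, 33.3, 46.8, 33.2 and 41.8 CPM and KO libraries 1 to 5 had 29.8, 24.7, 28.0, 29.1 and 25.4 CPM. Each KO library was below each control library, with KO library 1 the highest of its group and control libraries 2 and 4 the lowest of theirs. The mean fell from 38.4 ± 5.91 to 27.4 ± 2.25 CPM (SD, n = 5), or on the log2 scale a change of -0.49 (standard error 0.0968, 95% confidence interval -0.70 to -0.28, adjusted p = 0.0188 by edgeR's quasi-likelihood test; 2-sided exact permutation test, p = 0.00794). Without control library 5, KO library 2 or KO library 5 the direction held, but the edgeR adjusted p was 0.0593, 0.0676 and 0.0657. Of the tetranectin family and its plasminogen partners, 6 of 8 genes were tested, 2 were lower (Clec3b and Plat) and 0 higher, and the median log2 fold change was -0.34. Plat, the tissue-type plasminogen activator, had a log2 fold change of -0.35 (edgeR adjusted p = 0.0365), which passed the limit in only 2 of the 10 fits with a library left out (adjusted p 0.0530 to 0.119 in the other 8) and did not pass with the replicate number as a block (adjusted p = 0.0600). Plau, the urokinase, and its receptor Plaur had log2 fold changes of -0.55 and -0.33 and did not pass (edgeR adjusted p = 0.116 and 0.208).

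The gene most like Clec3b over the 10 libraries was Col3a1, which encodes the type III collagen chain of loose connective tissue, with a root mean square difference of 0.0490 in log2 CPM. Col3a1 had 2558, 2226, 3219, 2374 and 2773 CPM in the control and 1960.0, 1718, 1879.9, 2144 and 1778 CPM in the KO libraries. Because Col3a1 was picked for its likeness to Clec3b over these libraries, a shared order and fold change follow from the choice and are no separate result. The log2 fold change of Col3a1 was -0.47 (edgeR adjusted p = 0.0182; 0.0547 to 0.0651 without control library 5, KO library 2 or KO library 5). Tmsb10, which encodes an actin-binding thymosin, came next at 0.0742 with a log2 fold change of -0.52 (edgeR adjusted p = 0.00396). It was picked in the same way and is no separate result either.

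Ly6a encodes SCA1, the GPI-anchored antigen used to sort mouse adipose progenitors. It lies on the minus strand at chr15:74994877-74998031. It had 514, 505, 507, 394 and 618 CPM in the control libraries, against 412, 467, 492, 522 and 541 CPM in the KO libraries. The groups overlapped, with control library 5 the highest and control library 4 the lowest of the 10. KO against control gave a log2 fold change of -0.06 (95% confidence interval -0.28 to 0.16, edgeR adjusted p = 0.906). The interval leaves out a fall as large as that of Pdgfra's estimate of -0.31, and it does not show that the levels were equal. SCA1 is also carried by endothelial cells, whose summed markers were lower in each KO library. The part of endothelial RNA in the level of Ly6a was not tested.

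Of the LY6 family, 7 of 18 genes were tested, 1 was lower and 0 higher at the adjusted limit in edgeR, 2 were lower and 1 higher at an unadjusted p under 0.05, and Ly6f and Lypd3 had 0 counts in every library. Members of this family are close copies, and fragments could be split between them in counting. Ly6c1, found on endothelial and myeloid cells and some progenitors, had 179, 185, 183, 138 and 204 CPM in the control and 149, 159, 164, 191 and 185 CPM in the KO libraries. Ly6e had 320.2, 330.1, 344, 264 and 436 CPM in the control and 256, 273, 302, 306 and 374 CPM in the KO libraries. As for Ly6a, control library 5 was the highest and control library 4 the lowest of the control libraries for both, and KO library 1 was the lowest KO library. Neither passed the limit, with log2 fold changes of -0.06 and -0.17 (edgeR adjusted p = 0.884 and 0.686). The gene that fell was Gpihbp1, which anchors lipoprotein lipase on capillary endothelium. It went from 11.7 ± 1.06 to 4.85 ± 0.982 CPM (SD, n = 5) without overlap, a log2 fold change of -1.26 (standard error 0.125, edgeR adjusted p = 0.000136), close to the median of the endothelial list. Which cells the RNA of Gpihbp1 came from was not tested.

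Thy1 encodes CD90, a GPI-anchored protein of mesenchymal cells, neurons and mouse T cells. It lies on the plus strand at chr9:44043384-44048579. It had 16.3, 14.8, 20.8, 19.1 and 18.6 CPM in the control and 21.3, 15.4, 17.5, 20.1 and 16.9 CPM in the KO libraries. The highest value of the 10 was that of KO library 1 and the lowest that of control library 2, and the groups overlapped over nearly their whole range. The log2 fold change was 0.03 (95% confidence interval -0.20 to 0.26, edgeR adjusted p = 0.965), and without control library 1 or 2, or KO library 1 or 4, its sign turned (-0.03 to 0.00). Of 7 T cell genes, Cd3d and Cd3g were at 0 in every library, and the sum of the list was 0.892, 0.750, 1.55, 1.31 and 1.39 CPM in the control and 1.19, 0.878, 0.742, 0.962 and 0.916 CPM in the KO libraries, mostly Lck. Of 7 Schwann and neural genes, 6 were tested, 1 was lower and 1 higher at an unadjusted p under 0.05, the median log2 fold change was 0.18, and Ngfr, the most abundant and also a marker of mesenchymal progenitors as CD271, fell from 64.8 ± 11.3 to 39.9 ± 3.44 CPM (SD, n = 5; log2 fold change -0.70, edgeR adjusted p = 0.00324). The part of such cells in the level of Thy1 was not tested beyond these values.

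Dpp4, Pi16 and Cd55 mark the early interstitial pool, and none of the 3 passed the adjusted limit in edgeR. Dpp4 encodes a membrane peptidase and lies on the minus strand at chr2:62330073-62412231. It had 0.472, 1.05, 0.988, 1.02 and 0.592 CPM in the control and 0.744, 0.746, 0.567, 0.641 and 0.407 CPM in the KO libraries, on 8 to 28 counts per library. Control libraries 1 and 5 were within the KO range and the other control libraries above it. Its log2 fold change of -0.41 had a standard error of 0.263 (95% confidence interval -0.98 to 0.16, edgeR adjusted p = 0.612), and the interval holds both 0 and falls larger than that of Pdgfra. Its overlapping antisense gene Gm13561 had 0 counts. Of the dipeptidyl peptidase family, 8 of 9 genes were tested and 0 passed the adjusted limit in either direction in edgeR, 2 were lower and 0 higher at an unadjusted p under 0.05, and the median log2 fold change was -0.00505. Fap, the fibroblast activation protein encoded near Dpp4 on chromosome 2, had 6.08, 6.30, 8.28, 6.77 and 5.66 CPM in the control and 6.25, 4.87, 5.15, 5.59 and 3.46 CPM in the KO libraries, a log2 fold change of -0.38 (edgeR adjusted p = 0.294).

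Pi16 encodes a peptidase inhibitor with a CAP domain and lies on the plus strand at chr17:29317680-29330593. It had 0.892, 0.750, 1.32, 1.11 and 0.761 CPM in the control and 0.645, 0.527, 0.829, 0.596 and 0.356 CPM in the KO libraries, on 7 to 28 counts per library. KO library 3 was within the control range, and the other KO libraries were below all control libraries. The log2 fold change of -0.68 (standard error 0.247, 95% confidence interval -1.22 to -0.15) had an unadjusted p of 0.0166 in edgeR's quasi-likelihood test and did not pass after adjustment over all genes (adjusted p = 0.254; 2-sided exact permutation test, p = 0.0238). Pi16 overlaps AC162182.1 on the opposite strand. In the CRISP and CAP domain family 5 of 11 genes were tested, and 0 passed the adjusted limit in edgeR, with 2 lower and 0 higher at an unadjusted p under 0.05 and a median log2 fold change of -0.19. Glipr2, the most abundant of the family, and Pi15 had log2 fold changes of -0.19 and -0.25 (edgeR adjusted p = 0.375 and 0.473).

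Cd55 encodes the complement decay-accelerating factor, which early progenitors and leukocytes both carry. It lies on the minus strand at chr1:130439027-130462744. It had 41.2, 35.6, 45.3, 33.2 and 32.9 CPM in the control and 40.2, 29.5, 43.8, 37.4 and 27.4 CPM in the KO libraries. Libraries 1 and 3 were the highest and library 5 the lowest in both groups, and the groups overlapped. The log2 fold change was -0.07 (95% confidence interval -0.36 to 0.21, edgeR adjusted p = 0.908), and it went to 0.00 without control library 3 and to 0.01 without KO library 5. Its overlapping gene Gm16083 had 4 counts over the 10 libraries. Over the 10 libraries the genes most like Cd55 were Msr1, a scavenger receptor of macrophages, and Itgb2, the beta chain of leukocyte integrins, with root mean square differences of 0.0584 and 0.0670 in log2 CPM, and their shared order with Cd55 follows from that choice. Msr1 had 37.1, 29.7, 41.8, 28.7 and 30.0 CPM in the control and 38.3, 26.3, 36.9, 33.8 and 25.4 CPM in the KO libraries, and its log2 fold change of -0.05 turned to 0.04 without control library 3 and to 0.02 without KO library 2 or 5. The sum of 11 macrophage markers, of which Lyz2 was the most abundant and 0 passed the limit in edgeR, was 1817, 1463, 2137, 1467 and 1379 CPM in the control and 2011, 1309, 2016, 1875 and 1214 CPM in the KO libraries. As for Cd55, control libraries 1 and 3 were the highest of their group and KO libraries 2 and 5 the lowest of theirs, and the part of macrophage RNA in the level of Cd55 was not tested.

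Of the membrane regulators of complement, 6 of 7 were tested, and 0 passed the limit in edgeR in either direction, adjusted or not, with a median log2 fold change of -0.11. The copy Cd55b had 0 to 2 counts per library. Cr1l, the most abundant of them, had 78.7 ± 3.57 CPM in the 5 control cultures against 74.9 ± 3.88 CPM with KO (SD, n = 5), with a log2 fold change of -0.07. Cd59a, which blocks the membrane attack complex, had a log2 fold change of -0.15 (edgeR adjusted p = 0.528).

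The wider list of early interstitial progenitor genes, 20 in number and Dpp4, Pi16 and Cd55 among them, had 16 genes tested, of which 3 were lower and 0 higher at the adjusted limit in edgeR, with a median log2 fold change of -0.18. The log2 fold change was negative for 13 of these 16 genes and positive for 3. Control libraries averaged 74.2 CPM of Sbsn, the most abundant gene of the list, and KO libraries averaged 73.4 CPM. Its log2 fold change was -0.02 (edgeR adjusted p = 0.963). In each of the 3 genes past the limit, the KO libraries were all below the control libraries. Uchl1, a ubiquitin hydrolase, had 4.41, 4.50, 4.56, 4.55 and 4.78 CPM in the control and 2.93, 2.72, 2.44, 2.43 and 2.34 CPM in the KO libraries, a log2 fold change of -0.82 (standard error 0.0969, edgeR adjusted p = 0.000576). Its control libraries lay close together and all of the KO libraries well below them. Pcolce2, an enhancer of procollagen processing, fell from 4.71 ± 0.555 to 2.98 ± 0.369 CPM (SD, n = 5; log2 fold change -0.66, edgeR adjusted p = 0.0100). Efhd1, a mitochondrial calcium-binding protein, fell from 7.16 ± 0.605 to 4.55 ± 0.466 CPM (SD, n = 5; log2 fold change -0.65, edgeR adjusted p = 0.00294). Efhd1 and Uchl1 overlap antisense genes in their exons, and without a stated strand setting in the counting their fragments could be shared.

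Dlk1 encodes a membrane protein with EGF repeats that preadipocytes carry and shed, and lies in the imprinted cluster of chromosome 12, at chr12:109452823-109463336 on the plus strand. It had 13.0, 11.3, 13.4, 13.6 and 11.7 CPM in the control and 12.0, 13.6, 11.7, 8.06 and 10.6 CPM in the KO libraries. The control libraries lay close together, KO library 4 was the lowest of the 10, and KO library 2 was level with the highest control library. Its log2 fold change stood at -0.17 (standard error 0.118, 95% confidence interval -0.42 to 0.09, edgeR adjusted p = 0.663). Of Dlk1, its relative, protease and target and its imprinted neighbours, 7 of 10 genes were tested, 1 was lower and 0 higher at the adjusted limit in edgeR, and the median log2 fold change was -0.26. The gene that fell was Dio3, a deiodinase that inactivates thyroid hormone, with 35.6, 37.4, 38.3, 26.5 and 38.3 CPM in the control and 25.8, 22.5, 26.8, 24.4 and 25.0 CPM in the KO libraries (log2 fold change -0.50, edgeR adjusted p = 0.0128). Control library 4 was the lowest of its group and below KO library 3, and without KO library 2 the adjusted p was 0.0510. Meg3, the maternal long noncoding RNA of the cluster, varied more between libraries (SD of log2 CPM 0.908) than any of the markers, at 24.2, 11.8, 25.3, 30.5 and 5.45 CPM in the control and 21.9, 16.2, 13.1, 4.72 and 11.5 CPM in the KO libraries (log2 fold change -0.52, standard error 0.424). Begain and Rian had log2 fold changes of -0.34 and -0.26 (edgeR adjusted p = 0.782 and 0.596). Adam17, the protease that sheds DLK1, was at 74.7 ± 4.55 CPM in the 5 control cultures against 77.5 ± 5.76 CPM in KO cultures (SD, n = 5; log2 fold change 0.05).

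Of 20 genes of committed preadipocytes, Dlk1 among them, 20 were tested, 2 were lower and 0 higher at the adjusted limit in edgeR, and the median log2 fold change was -0.09. At an unadjusted p under 0.05, 7 were lower and 3 higher, beside 7.46% and 4.43% of all genes tested. The 3 higher genes were Pparg, Fabp4 and Cebpd, with log2 fold changes of 0.10, 0.12 and 0.20. Fabp4 is also on the list of mature adipocyte markers, and it made up 51.0% of the summed level of the preadipocyte list. Ggt5, a transpeptidase that cleaves leukotrienes, fell from 50.8 ± 4.87 to 40.2 ± 2.09 CPM (SD, n = 5; log2 fold change -0.34, edgeR adjusted p = 0.0162; without KO library 2, 0.0591). Vcam1, the adhesion molecule, fell from 25.4 ± 2.71 to 19.2 ± 2.03 CPM (SD, n = 5; log2 fold change -0.40, edgeR adjusted p = 0.0293), and without control library 3 or 5, or KO library 2, 3 or 5, the adjusted p was 0.0770 to 0.0979, as it was with the replicate number as a block (0.0962). Of the genes of the CD142-positive regulatory pool, 10 of 12 were tested and 0 passed the adjusted limit in edgeR. Unadjusted, 2 were lower and 0 higher at p under 0.05, and the median log2 fold change was -0.10. Its sign was negative for 6 of the 10 and positive for 4. F3, which encodes CD142, was among the 4. Control libraries averaged 72.2 CPM of F3 and KO libraries 84.3 CPM, and the groups overlapped. The log2 fold change of F3 was 0.22 (95% confidence interval -0.02 to 0.47, edgeR adjusted p = 0.481).

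Gas6 encodes a vitamin K-dependent ligand of the TAM receptor kinases and lies on the minus strand at chr8:13465374-13494490. It had 461, 358, 499, 399 and 430.0 CPM in the control and 467, 328, 381, 409 and 339 CPM in the KO libraries. KO library 1 was higher than 4 of the 5 control libraries, while KO libraries 2 and 5 were below all of them. Its log2 fold change stood at -0.16 (standard error 0.104, 95% confidence interval -0.38 to 0.07, edgeR adjusted p = 0.628). It shares 34 exonic bases with Tmem255b on the opposite strand, which had 31 counts over the 10 libraries against 88557 for Gas6. Of the ligands, receptors and vitamin K enzymes of this pathway, 7 of 7 were tested, 0 passed the adjusted limit in edgeR, 2 were lower and 0 higher at an unadjusted p under 0.05, and the median log2 fold change was -0.12. The 2 were the enzymes of vitamin K-dependent carboxylation, Ggcx at -0.12 and Vkorc1 at -0.31 (edgeR adjusted p = 0.332 and 0.341). The receptor Axl had 239 ± 18.0 CPM in the 5 control cultures against 251 ± 17.2 CPM in KO cultures (SD, n = 5; log2 fold change 0.07). Mertk and the ligand Pros1 had log2 fold changes of 0.14 and -0.20, with edgeR adjusted p-values of 0.535 and 0.474.

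**Figure D3:**
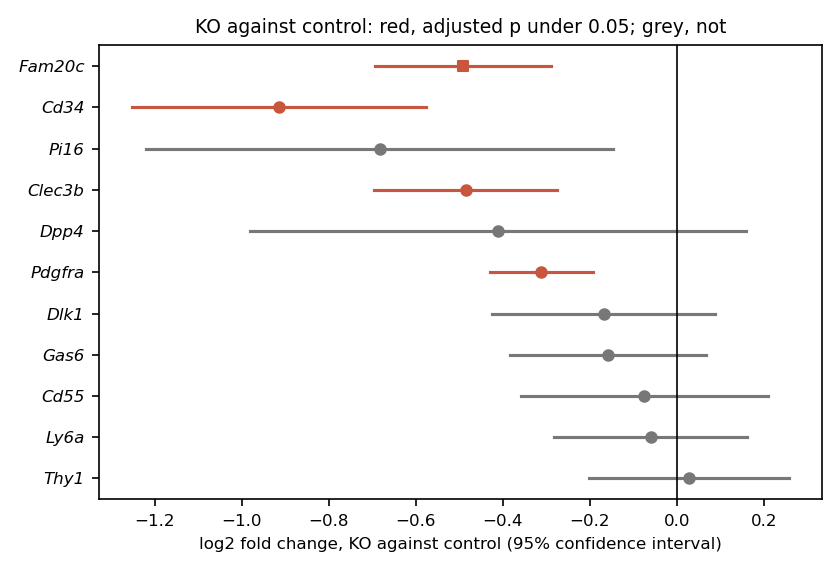
Log2 fold change of KO against control with its 95% confidence interval, from edgeR's quasi-likelihood test on 5 libraries a group, for Fam20c (square) and the 10 progenitor markers (circles) in order of their value. Red marks an adjusted p under 0.05 over all genes tested, and the intervals of Dpp4, Dlk1, Gas6, Cd55, Ly6a and Thy1 cross 0.

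Set beside genes that fibroblasts share, Pdgfra was one of 8 of 23 pan-fibroblast genes that were lower at the adjusted limit in edgeR, with 0 higher and a median log2 fold change of -0.10. At an unadjusted p under 0.05, 9 were lower and 1 higher, beside 7.46% and 4.43% of all genes tested. The log2 fold change was negative for 22 of the 23, against 50.3% of all genes. The 4 with the smallest p-values were Lum, Eng, Pdgfra and Col3a1. The summed level of the list was 20963, 19860, 21989, 19737 and 21435 CPM in the control libraries. In the KO libraries it was 18953, 17749, 18575, 19118 and 18322 CPM, each below each control library. Gsn made up 39.4% of this sum. Eng, which encodes endoglin and is found on mesenchymal and on endothelial cells, fell from 23.3 ± 2.47 to 16.4 ± 0.640 CPM (SD, n = 5; log2 fold change -0.51, edgeR adjusted p = 0.00211). Of the mural cell markers, 8 of 10 were tested and 0 passed the adjusted limit in edgeR, with 4 lower and 0 higher at an unadjusted p under 0.05, a median log2 fold change of -0.24 and Mcam the most abundant (69.2 CPM in control, 71.3 CPM in KO). The log2 fold change was negative for 7 of the 8 and positive for Mcam alone. The 4 lower genes were Abcc9, Kcnj8, Notch3 and Acta2, at -0.42, -0.53, -0.35 and -0.41. For Abcc9 and Kcnj8 each KO library was below each control library, an order seen in 2.66% of all genes. Of 6 mesothelial genes, 2 were tested, Upk1b was at 0, and 0 passed the limit in edgeR, adjusted or not. The summed level of the mural markers was 153, 157, 165, 192 and 159 CPM in the control and 151, 163, 133, 158 and 160.1 CPM in the KO libraries, and that of the mesothelial markers 24.8, 24.6, 24.2, 31.2 and 26.8 CPM in the control and 36.8, 26.4, 24.8, 17.2 and 23.6 CPM in the KO libraries. The part of these cells in the levels of the progenitor markers was not tested.

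The reference held RefSeq promoter sequences for 7 of the 10 markers, and none for Ly6a, Thy1 or Clec3b. For each of the 7 the 150 bases before the RefSeq start are given 5′ to 3′ on the strand of the gene (GRCm38.p6): Pdgfra at chr5:75152101-75152250 (plus), Cd34 at chr1:194938671-194938820 (plus), Dpp4 at chr2:62412232-62412381 (minus), Pi16 at chr17:29318732-29318881 (plus), Cd55 at chr1:130462745-130462894 (minus), Dlk1 at chr12:109452673-109452822 (plus) and Gas6 at chr8:13494536-13494685 (minus). Capitals mark the GC box, searched as GGGCGG, and the CCAAT box, searched as CCAAT, both on both strands.
Pdgfra: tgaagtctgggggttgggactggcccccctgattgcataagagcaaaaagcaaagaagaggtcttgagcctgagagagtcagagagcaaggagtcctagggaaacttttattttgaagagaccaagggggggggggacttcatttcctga
Cd34: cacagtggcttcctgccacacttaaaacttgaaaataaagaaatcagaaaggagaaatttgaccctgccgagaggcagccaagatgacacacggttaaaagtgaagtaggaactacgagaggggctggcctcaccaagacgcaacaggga
Dpp4: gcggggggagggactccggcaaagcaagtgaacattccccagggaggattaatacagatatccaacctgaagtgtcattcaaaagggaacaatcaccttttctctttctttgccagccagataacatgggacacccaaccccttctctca
Pi16: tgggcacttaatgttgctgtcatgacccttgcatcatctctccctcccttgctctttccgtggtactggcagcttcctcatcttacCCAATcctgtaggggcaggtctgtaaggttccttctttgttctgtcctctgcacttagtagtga
Cd55: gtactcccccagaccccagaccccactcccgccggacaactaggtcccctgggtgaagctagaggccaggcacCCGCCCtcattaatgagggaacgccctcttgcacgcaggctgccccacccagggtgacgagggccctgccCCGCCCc
Dlk1: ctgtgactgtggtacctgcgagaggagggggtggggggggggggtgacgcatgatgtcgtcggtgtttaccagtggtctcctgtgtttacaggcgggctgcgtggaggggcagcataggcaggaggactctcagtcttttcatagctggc
Gas6: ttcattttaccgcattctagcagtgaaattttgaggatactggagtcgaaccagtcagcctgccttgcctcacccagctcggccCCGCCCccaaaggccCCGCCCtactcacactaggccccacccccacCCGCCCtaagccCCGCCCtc
Of the 7 markers with a window, the 2 that fell, Pdgfra and Cd34, had 0 GC boxes. Of the 5 that did not pass the limit, Dpp4, Pi16 and Dlk1 also had 0, Cd55 had 2 and Gas6 had 4, so that a window without a GC box was found in both kinds. Of all 27025 promoters of the same length, 29.0% held a GC box. The share of G and C was 50.7% for Pdgfra, 48.0% for Cd34, 49.3% for Dpp4, 50% for Pi16, 69.3% for Cd55, 61.3% for Dlk1 and 62.0% for Gas6. The Pi16 window lies inside the gene as GENCODE M21 places it, downstream of the start at chr17:29317680. The letters CCAAT (in 25.3% of promoters) were found once, in Pi16, and CCGGAAG of an ETS site (5.68%), TATAAA (8.08%) and AGGTCA (8.49%) in none of the 7 windows. These matches describe the windows and say nothing of which factors bind there.

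These values come from 5 against 5 bulk cultures in which progenitors, adipocytes, endothelial cells and macrophages were read together. A lower level of Pdgfra, Cd34 or Clec3b may lie in the number of cells or in the RNA of each cell, and protein on the cell surface was not measured. In which cells Cre had acted, and whether a progenitor had lost Fam20c, was not tested. Dpp4 and Pi16 had few counts and wide confidence intervals. Without the strand setting of the counting, fragments of overlapping genes may be shared, and the same holds for close copies such as those of Ly6a.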

How the data were processed

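The authors prepared libraries with a SMARTer kit, used STAR to place read pairs on GRCm38.p6 (called mm10 in the submitters' processing notes), and obtained a count for each Ensembl gene from featureCounts. They deposited these counts without normalization, and the strand setting of the counting is not given in the sources used here. The table has 1 column for each of the 10 libraries, matched to the labels by name, and 0 columns of other samples.

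Genes with low deposited counts were dropped by filterByExpr at a minimum count of 10 (edgeR 4.0.16, R 4.3.3). edgeR then scaled library sizes by TMM and tested KO against control without pairing by the quasi-likelihood test, with Benjamini-Hochberg adjustment over the 14270 genes tested and a limit of 0.05. Standard errors were taken as the ratio of the log2 fold change to the square root of its F statistic. Log2 CPM for exact permutation tests, which were 2-sided over all 252 assignments, and for likeness used a prior count of 2. Positions and exon lengths come from GENCODE M21, in which 52125 of the table's genes, 14098 of the tested genes and 10 of the 10 markers have the same identifier; the versions of the table's identifiers are newer, so gene models can differ. Libraries of a group differed by more than sampling noise (chi-square per degree of freedom at least 3.50).

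The members and gene lists were chosen with earlier results of these data known, and lists are described by counts and medians without a set test. Named are Fam20c, the 10 markers, up to 4 genes past the limit of a list and, for most lists but not all, its most abundant gene, members of a marker's family or pathway, the 2 genes most like each of the 3 markers with the largest SD of log2 CPM at a mean of at least 1 CPM, and genes that overlap a marker. Also named, without alternatives, are F3, Sbsn, Begain, Pparg, Cebpd, Abcc9, Kcnj8, Notch3 and Acta2. Alternatives were DESeq2 1.42.0, RLE and upper quartile factors, 2 other filters, weighted voom from limma 3.58.1, the replicate number as a block, each library left out in turn, control library 4 and KO library 1 left out together, and the longest transcript as gene length. The script was tested on simulated counts.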

Additional observations from a re-analysis of the deposited data

How the results depend on the processing

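Under 18 alternatives, 2 or 3 of the 10 markers were lower and 0 higher, and their median log2 fold change lay between -0.30 and -0.17. Pdgfra and Cd34 passed the limit in 18 of 18, at log2 fold changes of -0.34 to -0.28 and -1.02 to -0.82, and Clec3b in 15. Of 24 named genes past the limit, 17 passed in every alternative run and 0 changed sign. The 17 changes of sign were in genes far from the limit. Leaving out each library gave log2 fold changes of -0.158 to 0.00536 for Cd55, -0.136 to 0.0207 for Ly6a, -0.0348 to 0.0905 for Thy1, -0.121 to 0.0420 for Msr1 and -0.0154 to 0.181 for Lyz2. Without both control library 4 and KO library 1, the value was -0.00640 for Thy1 and -0.0462 for Lyz2. With limma voom and quality weights it was -0.0300 for Lyz2. Their cause was not tested.

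The number of higher genes, 44, depended on the setting. It was 125 with DESeq2, 111 with limma voom and 145 without both control library 4 and KO library 1. With each library left out it ran from 19 to 119, the latter without control library 4, and fell by over 1.5 times without any of the other libraries except control library 2 and KO library 1. The number of lower genes, 265, ran from 164 (without KO library 2) and 171 (without KO library 5) to 323, and was 359 with DESeq2. Why these numbers moved was not tested.

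With the replicate number as a block, 193 genes were lower and 21 higher, and Pdgfb (adjusted p = 0.0745), Vcam1 (0.0962) and Plat (0.0600) no longer passed; the cause was not tested. Over all genes tested, the libraries showed no clear pairing by number. Correlations of deviations from the group means were -0.173, 0.0892, 0.263, -0.251 and 0.0337, and 1 of the 5 control libraries was closest to the KO library of its number. Whether libraries of the same number shared a source was not tested.

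With the longest transcript in place of merged exons, the control level per kilobase of Cd34 rose from 3.29 to 7.82 and that of Pdgfra from 22.2 to 32.6, and the order of the 10 markers was the same, but Cd34 and Dlk1 no longer overlapped. With the filter of 1 CPM in 5 libraries Dpp4 and Pi16 were not tested, and the median of -0.17 is that of the other 8 markers.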
